A study of Homo sapiens with 28 samples.

Results

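CXCR4 and SELPLG are a pair of cell surface genes that guide lymphocytes out of the blood and through tissue. They were chosen by symbol from the 7485 genes of the authors' deposited table, so the account covers 2 genes of 7485. Both had been picked because their total RNA was much lower 4 h after activation than before it. Their total RNA values are therefore given as a description without a test. Tests on the genes are kept to labelled RNA, which came from separate libraries of the same experiment. Labelled and total samples carry the same replicate letters, and labelled RNA is part of total RNA. Tests on labelled RNA are therefore not independent of the choice of the genes. The cells were Jurkat, an established human T cell leukaemia line kept in RPMI1640 medium. Activated cells received phorbol myristate acetate (PMA) at 0.5 µg/ml together with phytohaemagglutinin (PHA) at 2 µg/ml and were followed at 1, 2, 3 and 4 h; unactivated cells were the starting point. Total RNA (T in the labels) and 4-thiouridine-labelled RNA (IP in the labels), which is the newly made part captured on beads, were sequenced at each time. There were 28 samples in 10 groups, 3 to a group except for the 2 groups at 1 h, which had 2 samples each.

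CXCR4 is a G protein-coupled receptor for the chemokine CXCL12. It couples to inhibitory G proteins, drives migration toward CXCL12, and is taken off the surface through receptor kinases, beta-arrestins and lysosomal sorting. It also holds immature T cells in the thymus and bone marrow niches and serves as an HIV coreceptor. SELPLG encodes PSGL-1, a mucin-like dimer that binds P-selectin and, when suitably glycosylated and sulphated, E- and L-selectin, and so lets leukocytes tether and roll on the vessel wall. HuR, the product of ELAVL1, is an RNA-binding protein that prefers U-rich and AU-rich stretches of mRNA and is known mainly for protecting bound mRNAs from decay.

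In the deposited table CXCR4 is ENSG00000121966 and SELPLG is ENSG00000110876. CXCR4 lies on the minus strand of chromosome 2 at chr2:136114349-136118165 and SELPLG on the minus strand of chromosome 12 at chr12:108622277-108633959, both in GENCODE release 29 on GRCh38, while the authors worked on hg19. No other annotated gene overlapped CXCR4. SELPLG overlapped 1 antisense gene, AC007569.1, and since the sources used here do not give the strand setting of the counting, reads of that pair cannot be told apart. Per unit length, the authors' mean total RNA was 98.0 RPKM (reads scaled to gene length and library size) for CXCR4 and 21.0 RPKM for SELPLG, beside a median of 54.5 RPKM over all genes.

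Stretches of the 3′ ends of both mRNAs are shown because the authors' HuR results, given further down, set the genes apart. They were read from GENCODE release 29 transcripts with the longest 3′ untranslated region, CXCR4-202 with 520 bases after the stop codon and SELPLG-203 with 792 bases, and T stands for U. For each gene the 30-base window richest in T is printed with runs of 5 or more T in capitals. The CXCR4 window starts 110 bases after the stop codon (chr2:136114730-136114759, minus strand, 21 of 30 bases T) and the SELPLG window 276 bases after it (chr12:108622764-108622793, minus strand, 15 of 30 bases T).
CXCR4: aTTTTTgtcttgtgtttctttagTTTTTgt
SELPLG: ttctctccTTTTTcctgtcccccatcttct
The AU-rich pentamer ATTTA occurred once in each region. It is in capitals in the following windows of 25 bases (chr2:136114699-136114723 and chr12:108622795-108622819, minus strand).
CXCR4: taattgacttATTTAtataaatttt
SELPLG: gcaggaggccATTTActtgagacag

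The CXCR4 region was 38.5% T and the SELPLG region 23.5% T. Overlapping matches to TTTTT on the transcript strand numbered 18 in CXCR4, against a median of 3 over the first 520 bases of the 6048 regions at least that long, of which 77.7% held the motif and 2.28% held more matches than CXCR4. SELPLG had 1 match to TTTTT, against a median of 5 over the first 792 bases of 5362 regions, of which 86.8% held it. ATTTA was present in 60.7% of the regions cut to the CXCR4 length and in 74.0% of those cut to the SELPLG length. The longer AU-rich element TTATTTATT, which contains ATTTA, was found in neither gene, and in 2.79% and 4.08% of those regions. These matches describe letters and not binding.

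The promoter of CXCR4 is shown because labelled CXCR4 RNA changed so much. It is the RefSeq window (GRCh38.p14) from 250 bases before to 50 bases after the most upstream of 3 listed start sites, at chr2:136118100-136118399 on the minus strand. The promoter table held 1 of the 2 members, CXCR4. Capitals mark a TATA box (TATAAA), GC boxes (GGGCGG, the site of SP1-type factors) and the core of the NRF1 site (GCATGCGC), each searched on both strands.
CXCR4: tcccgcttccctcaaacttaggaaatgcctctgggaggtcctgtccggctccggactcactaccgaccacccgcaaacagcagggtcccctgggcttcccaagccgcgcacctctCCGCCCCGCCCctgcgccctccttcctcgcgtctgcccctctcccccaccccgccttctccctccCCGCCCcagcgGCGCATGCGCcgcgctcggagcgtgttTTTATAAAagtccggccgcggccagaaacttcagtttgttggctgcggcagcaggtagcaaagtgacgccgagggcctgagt

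The window held 2 overlapping TATAAA matches, on opposite strands, whose first bases were at -32 and -30 relative to the start site. It held 3 GGGCGG matches, all on the opposite strand, at -135, -130 and -70, the first pair sharing a base, and 2 overlapping GCATGCGC matches, on opposite strands, at -59 and -57. Of 35116 RefSeq promoters of this length, 11.5% held TATAAA, 45.0% GGGCGG and 3.05% GCATGCGC. The letters of an AP-1 site (TGANTCA, in 7.71% of promoters), a FOXO site (TGTTTAC, 3.42%), a YY1 core (CCATNTT, 15.6%) and a hypoxia response core (ACGTG, 21.4%) were not in this window on either strand. The GC content was 66.7%, against a median of 58.7%.

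For each group the table gives the authors' mean and SD on a normalised scale that sums to between 913919 and 1037463, and no value of a single sample. With 3 samples none can lie farther than 1.155 SD from its mean, and with 2 samples both values follow from mean and SD, so each group's values can be bounded. In total RNA at 1 h this gave back whole reads in both samples for 152 of 152 genes with means under 5 (tolerance 0.02 of a read), at depths of 11050000 and 11177000 reads if the scale is CPM; the depth of the other samples is unknown. Of 16 T cell markers 10 were measured, among them CD3D, CD3G, CD247 and LCK, and their summed total RNA mean was between 3331 and 3795. Within that sum members moved apart: RAG1, a recombinase gene, was at 11.8 at 4 h against 349 in unactivated cells and RAG2 at 5.58 against 49.5, while TRAT1 was at 299 against 105 and CD28 at 58.6 against 28.2. Of 19 markers of other cell types 3 were measured: AIF1 of myeloid cells between 85.2 and 99.8, THY1 between 9.84 and 11.9, and VIM, which T cells also make, between 401 and 576 with its highest mean at 4 h; the part of VIM-expressing cells in any result was not tested. The other 16 were not analysed here, and a marker list cut this short says little on purity. In bulk RNA, fewer cells of a type and less RNA per cell cannot be told apart.

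Labelled CXCR4 RNA was lower at 1 h, the first time sampled, and its mean kept falling up to 3 h. The scale is the authors' normalised one, so the values do not show how much RNA was made overall. The authors' mean in labelled RNA was 598 ± 69.6 in unactivated cells, 345 ± 70.2 at 1 h, 129 ± 11.9 at 2 h, 78.7 ± 14.5 at 3 h and 104 ± 14.3 at 4 h (deposited SD). The 2 samples at 1 h were at 295 and 394. Unactivated samples must have lain between 517 and 678, samples at 2 h between 116 and 143, at 3 h between 62.0 and 95.5, and at 4 h between 87.7 and 121. No sample at any hour can therefore overlap the unactivated ones, and those at 4 h can overlap those at 2 h and at 3 h.

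Against unactivated cells the log2 change of labelled CXCR4, on the log2(value + 1) scale, was -0.79 ± 0.17 at 1 h (SE; adjusted p = 0.00121 by limma), -2.20 ± 0.15 at 2 h (3.6e-16), -2.91 ± 0.15 at 3 h (1.6e-20) and -2.51 ± 0.15 at 4 h (6.4e-18). At 3 h it was down to 13.2% of the unactivated mean. Of 7485 genes 4 had a more negative labelled change at 3 h, a place that is not independent of how CXCR4 was chosen.

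Labelled SELPLG RNA took the same course on the same normalised scale, from a lower start. The authors' mean in labelled RNA was 89.0 ± 3.00 in unactivated cells, 43.0 ± 0.489 at 1 h, 19.1 ± 3.42 at 2 h, 9.43 ± 2.35 at 3 h and 10.99 ± 3.75 at 4 h (deposited SD). The means at 3 and 4 h were near the low end of the table, with 7230 and 7152 of 7485 genes higher. Their SDs were 24.9% and 34.1% of the mean. How far a floor shaped these values was not tested. The 2 samples at 1 h were at 42.7 and 43.4. Unactivated samples must have lain between 85.5 and 92.5, those at 2 h between 15.2 and 23.0, those at 3 h between 6.72 and 12.1, and those at 4 h between 6.66 and 15.3. Again no sample after activation can overlap the unactivated ones, and 4 h can overlap 2 h and 3 h.

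The log2 change of labelled SELPLG against unactivated cells was -1.03 ± 0.28 at 1 h (SE; adjusted p = 0.0196 by limma), -2.16 ± 0.25 at 2 h (5.6e-09), -3.11 ± 0.25 at 3 h (1.3e-13) and -2.91 ± 0.25 at 4 h (1.5e-12). At 3 h it stood at 10.6% of the unactivated mean, and 3 of 7485 genes had a more negative change. Both members were thus called lower at all 4 times, where the share of all genes called lower was 2.07%, 9.25%, 11.4% and 13.7% at 1, 2, 3 and 4 h. Labelled RNA is part of the total RNA whose fall chose the members, so these calls and the members' places among all genes are not independent of that choice. The calls at 1 h rest on 2 samples: with the higher sample alone CXCR4 had an adjusted p of 0.0769 in limma, and with either sample alone SELPLG had 0.0714 or 0.0789.

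**Figure D1:**
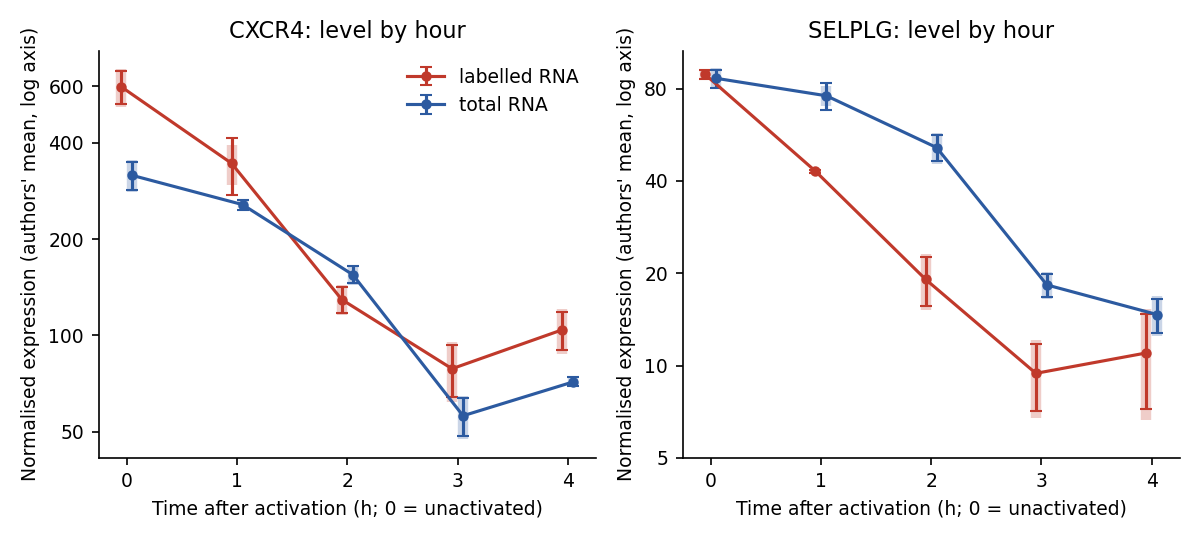
Level of CXCR4 and SELPLG in labelled and total RNA against hours after activation, with 0 for unactivated cells. Points are the authors' means on a log axis, whiskers their SD, and pale bars the range in which single samples must lie (at 1 h, the span of the 2 samples). Labelled SELPLG drops to 43.0 at 1 h while total SELPLG is still at 75.8.

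Hour by hour, both genes fell in labelled RNA at each step up to 3 h, and neither had a called step after 3 h. Between 1 and 2 h labelled CXCR4 fell by 1.41 ± 0.17 on the log2 scale (SE; adjusted p = 3.7e-08 by limma) and labelled SELPLG by 1.13 ± 0.28 (0.00959), where 2.23% of all genes were called lower. Between 2 and 3 h CXCR4 fell by 0.71 ± 0.15 (adjusted p = 0.00255 by limma) and SELPLG by 0.95 ± 0.25 (0.0319), where 1.00% of genes were called lower. Between 3 and 4 h neither was called: CXCR4 had a change of 0.40 ± 0.15 (95% interval 0.10 to 0.70, adjusted p = 0.134 by limma) and SELPLG of 0.20 ± 0.25 (-0.31 to 0.71, adjusted p = 0.758), where 1.39% of genes were called higher.

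The later steps depended on single samples and settings. For the step from 2 to 3 h, leaving out 1 sample at 3 h could bring the adjusted p in limma to 0.0555 for CXCR4 and 0.159 for SELPLG, and on the linear scale it was 0.476 and 0.235. For the step from 1 to 2 h, SELPLG had an adjusted p of up to 0.0613 in limma without 1 sample. In the other direction, the step of CXCR4 from 3 to 4 h could reach an adjusted p of 0.0441 in limma without 1 sample at 3 h.

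Total RNA holds new and old transcripts together, and for both genes it trailed the labelled RNA. The authors' mean of total CXCR4 was 316 ± 31.4 in unactivated cells, 256 ± 9.39 at 1 h, 155 ± 9.46 at 2 h, 56.2 ± 7.58 at 3 h and 71.6 ± 2.31 at 4 h (deposited SD). The 2 samples at 1 h were at 249.5 and 262.8. No pair of these 5 groups can overlap, so the lowest total CXCR4 was at 3 h in every sample, between 47.4 and 64.9 against 69.0 to 74.3 at 4 h.

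The authors' mean of total SELPLG was 86.4 ± 5.84 in unactivated cells, 75.8 ± 7.80 at 1 h, 51.4 ± 5.04 at 2 h, 18.3 ± 1.57 at 3 h and 14.7 ± 1.86 at 4 h (deposited SD). The 2 samples at 1 h were at 70.3 and 81.3, and the unactivated ones must have lain between 79.7 and 93.2, so these groups can overlap, as can 4 h (12.5 to 16.8) and 3 h (16.5 to 20.1). All other pairs of groups were apart.

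Set against the unactivated mean, labelled CXCR4 was at 57.7% at 1 h while total CXCR4 was at 81.1%, and at 2 h the values were 21.7% labelled and 48.98% total. For SELPLG the gap was wider, with 48.4% labelled and 87.7% total at 1 h, and 21.5% labelled and 59.4% total at 2 h. At 4 h the gap had narrowed to 17.4% labelled and 22.7% total for CXCR4 and 12.3% labelled and 17.0% total for SELPLG. The log2 change of total RNA at 4 h, the contrast that chose the genes, was -2.13 ± 0.10 for CXCR4 and -2.48 ± 0.11 for SELPLG (SE), and 3 and 2 of 7485 genes had a more negative one. By limma 14.5% of all genes were called lower and 21.4% higher in total RNA at 4 h, and nothing is read from the members' place among them.

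**Figure D2:**
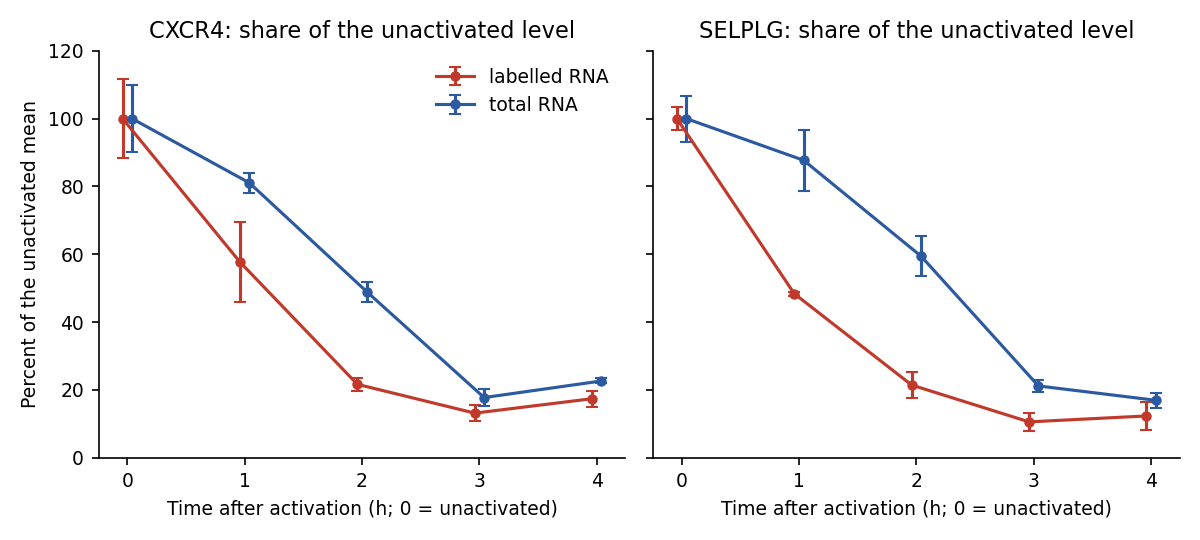
Labelled and total RNA of CXCR4 and SELPLG as a percent of the unactivated mean of the same kind of RNA, against hours after activation. Points are ratios of the authors' means and whiskers the SD of each hour in the same unit. Labelled RNA lies below total RNA at each hour, most widely at 1 and 2 h.

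The log2 changes of the members differed by at most 0.40 at any hour, and both had been picked for the same fall of total RNA. CXCR4 minus SELPLG in labelled RNA was 0.24 ± 0.33 at 1 h, -0.03 ± 0.29 at 2 h, 0.20 ± 0.29 at 3 h and 0.40 ± 0.29 at 4 h (SE, treating the genes as independent although they share libraries). In total RNA it was -0.11 ± 0.17, -0.29 ± 0.15, -0.29 ± 0.15 and 0.36 ± 0.15. The sign in total RNA turned between 3 and 4 h, where the log2 change from 3 to 4 h was 0.35 ± 0.10 for CXCR4 and -0.30 ± 0.11 for SELPLG. None of these differences was tested.

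The labelled-to-total ratio sets a gene's labelled RNA against its total RNA and is read relative to other genes. The labelled and total libraries were scaled separately, so the ratio has no absolute unit. Whether labelled RNA of different genes was captured equally well was not tested. In unactivated cells the log2 ratio was 0.92 ± 0.14 for CXCR4 and 0.04 ± 0.18 for SELPLG (SE), beside a median of 0.15 over all genes. Of all genes 81.5% had a lower ratio than CXCR4 and 45.0% a lower one than SELPLG, which put CXCR4 high among genes before activation and SELPLG near the middle. At 2 h the log2 ratio was at its lowest, -0.26 ± 0.14 for CXCR4 and -1.38 ± 0.18 for SELPLG, and 34.2% and 1.42% of genes had a lower one.

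By 4 h the log2 ratio was 0.53 ± 0.14 for CXCR4 and -0.39 ± 0.18 for SELPLG, against a median of 0.14. At 1 and 3 h it was 0.43 ± 0.17 and 0.48 ± 0.14 for CXCR4, and -0.80 ± 0.22 and -0.89 ± 0.18 for SELPLG. Both ratios thus dipped and came back in part, standing at 4 h at -0.38 (CXCR4) and -0.43 (SELPLG) relative to unactivated cells, and CXCR4 was above SELPLG at each time. These ratios contain the total values that chose the genes and were not tested.

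**Figure D3:**
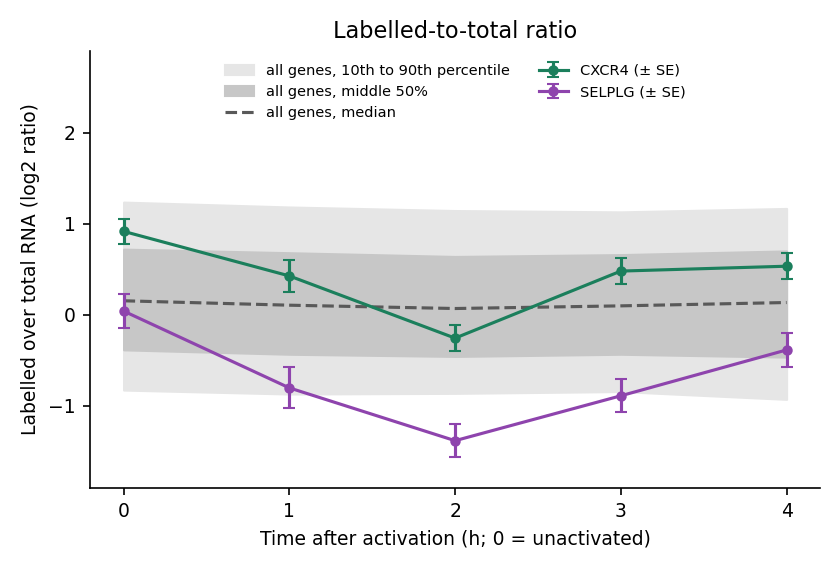
Log2 ratio of labelled over total RNA against hours after activation for CXCR4 and SELPLG, with SE as whiskers. The dashed line is the median of all 7485 genes and the grey bands their middle 50% and the span from the 10th to the 90th percentile. SELPLG lies below the wider band at 2 h, at -1.38, and just below it at 3 h, while CXCR4 stays inside it.

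The authors' deposited table holds a rate for each hour on a natural log scale, headed DR and read here as a decay rate. All 36794 rates checked equalled, within 0.001, the natural log of total RNA less 0.266 times labelled RNA, divided by the preceding hour's total RNA. For unactivated cells, which have no preceding hour, their own total stands in both places. A rate therefore states which share of the earlier RNA was still there and not newly made, and more negative values mean faster loss. In the authors' deposited table the CXCR4 rate was -0.70 ± 0.155 in unactivated cells, -0.65 ± 0.161 at 1 h, -0.76 ± 0.0904 at 2 h, -1.48 ± 0.249 at 3 h and -0.25 ± 0.169 at 4 h (deposited SD). That corresponds to 49.7%, 52.0%, 47.0%, 22.7% and 78.2% left after an hour.

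For SELPLG the rate in the authors' deposited table was -0.32 ± 0.0285 in unactivated cells, -0.29 ± 0.139 at 1 h, -0.49 ± 0.151 at 2 h, -1.18 ± 0.147 at 3 h and -0.44 ± 0.195 at 4 h (deposited SD). That corresponds to 72.6%, 74.5%, 61.1%, 30.8% and 64.1% left, while the median gene kept between 69.8% and 74.8%. Both genes had their most negative rate at 3 h, when 2.81% of genes had a more negative rate than CXCR4 and 4.86% a more negative one than SELPLG.

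In unactivated cells the genes differed in rank, with 17.6% of genes more negative than CXCR4 and 54.1% more negative than SELPLG. With the same total in both places, the unactivated rate depends only on labelled over total RNA. These unactivated ranks therefore restate the labelled-to-total ratio and are not a separate observation. At 4 h CXCR4 had moved to the slow side, with 70.8% of genes more negative, and SELPLG was at 38.5%. The T score of the change from unactivated cells in the authors' deposited table was -4.62 at 3 h and 3.44 at 4 h for CXCR4, so its sign turned within an hour. The total RNA mean at 3 h is the later value in the 3 h rate and the earlier value in the 4 h rate. A low mean there makes the 3 h rate more negative and the 4 h rate less negative, so these scores are not separate observations. For SELPLG the deposited T score was -9.94 at 3 h and -1.10 at 4 h. Because these rates are built from the total RNA means they are described and not tested, and they rest on the factor of 0.266 being right for every gene and hour.

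The members also parted in HuR association. The authors' deposited table gives a LOD score of HuR association, made in a way that the sources used here do not give, and higher scores are taken to mean stronger association. CXCR4 had a LOD of 1.23 at 4 h and 1.56 at 0 h, against a median of -8.70 at 4 h and -9.23 at 0 h over 5017 scored genes. Only 4.03% of genes scored higher at 4 h and 2.63% at 0 h. SELPLG had a LOD of -9.22 at 4 h and -13.5 at 0 h, with 55.0% and 73.5% of genes above it.

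In the human embryonic kidney line that the table also covers, the authors' deposited table scored CXCR4 at -0.20 and SELPLG at -3.99, with 16.9% and 47.6% of 6376 genes above them. The table's yes-or-no calls pointed the same way. CXCR4 was a target by iCLIP, a crosslinking method (as were 19.4% of genes), a target in the column on ELAVL1 and the 3′ end (61.0%), and marked yes in a column headed HuR_Any (11.6%). That column is filled for the same 5017 genes as the Jurkat LOD scores and how it was made is not stated, so it may restate them. SELPLG was marked in none of these columns. No error or replicate is given for these scores and calls.

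**Figure D4:**
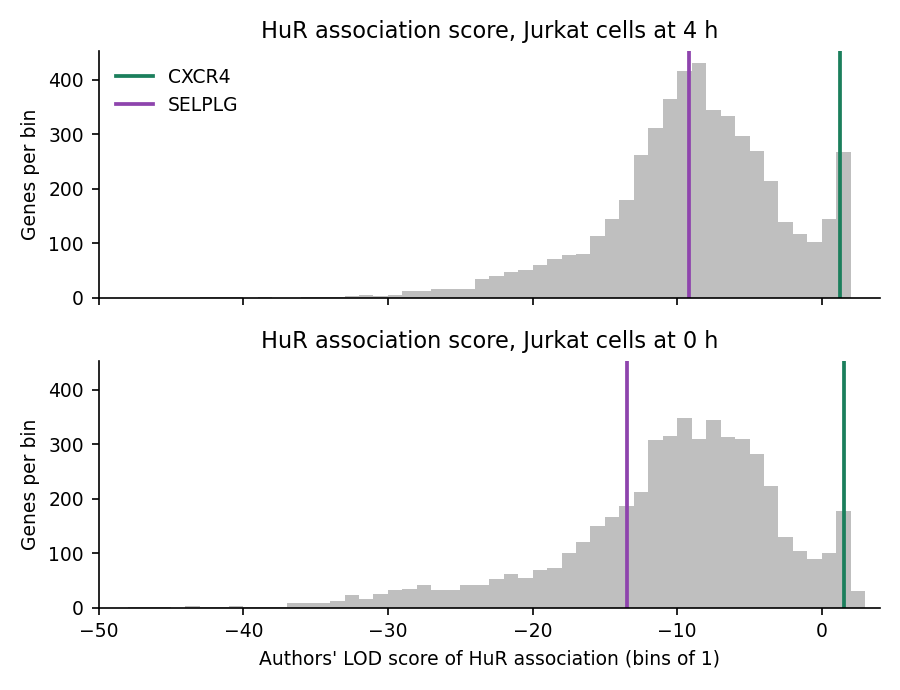
Distribution of the authors' LOD score of HuR association over 5017 genes in Jurkat cells at 4 h (top) and 0 h (bottom). Bars count genes in bins of 1, and lines mark CXCR4 and SELPLG. CXCR4, at 1.23 and 1.56, lies in the small right-hand peak, and SELPLG, at -9.22 and -13.5, in the broad main one.

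Genes with the most similar course were sought over all 7485 genes by the root mean square difference of their 8 log2 changes (total and labelled RNA at 1, 2, 3 and 4 h against unactivated cells). SELPLG was nearest to CXCR4, and CXCR4 nearest to SELPLG, at a difference of 0.27 on the log2 scale; both had been picked for the same fall, which enters this measure. Among the nearest to CXCR4 were also MYC, a growth-driving transcription factor (0.37), ENDOD1 (0.43) and ZFYVE21 (0.53). Among the nearest to SELPLG were MYC (0.53), ENDOD1 (0.53) and PDGFC, a platelet-derived growth factor (0.59). These comparisons share their unactivated samples. Genes were ranked instead by Pearson correlation over the 10 group means on the log2 scale, which ignores the size of a change. Total and labelled means enter it together, so a gene's offset between labelled and total RNA also enters r. The nearest was then TMEM97 for CXCR4 (r = 0.97) and RASGRP1, an activator of RAS in T cells, for SELPLG (r = 0.99). By that measure CXCR4 and SELPLG each ranked only 116th for the other (r = 0.86).

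The rest of the trafficking machinery did not move as a block. Over 7 lists of chemokine receptors and ligands, CXCR4 signalling, selectin ligand synthesis, PSGL-1 partners, adhesion and transcription factors, 90 of 184 genes were measured. In labelled RNA at 4 h 22 of them were called higher, 14 lower and 54 neither, where 13.7% of all genes were called higher and 13.7% lower. In total RNA at 4 h 33 were called higher, 15 lower and 42 neither, where 21.4% and 14.5% of all genes were. Among the 90, the lowest labelled change at 4 h was that of GALNT2 at -1.36, well above those of CXCR4 and SELPLG. Both members were picked for a deep fall of total RNA at 4 h, so nothing is read from that gap.

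Of 28 other chemokine and lipid receptors 2 were measured, so CXCR4 was the only classical chemokine receptor analysed here. PTGER4, the prostaglandin E2 receptor EP4, fell by 0.75 ± 0.17 in labelled RNA at 4 h (SE; adjusted p = 0.00075 by limma), with 81.3 ± 12.8 against 138 ± 34.1 in unactivated cells, and LTB4R, a leukotriene B4 receptor named to complete the pair, was not called (0.46 ± 0.25). Of 14 chemokine ligands only MIF, a cytokine that can also bind CXCR4, was measured. Its labelled RNA fell by 0.97 ± 0.26 (adjusted p = 0.00416 by limma), to 24.8 ± 8.91 against 49.4 ± 18.3, and its total RNA was not called.

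Downstream of the receptor, 9 of 32 measured genes of CXCR4 signalling and turnover rose in labelled RNA at 4 h, 4 fell and 19 were not called. Their median change was 0.18 against -0.01 over all genes, of which 13.7% were called higher and 13.7% lower. PTK2B, the tyrosine kinase PYK2, rose by 2.16 ± 0.19, to 124 ± 17.6 against 27.0 ± 3.74 in unactivated cells. ARRB1, which encodes beta-arrestin 1, rose by 1.62 ± 0.21, to 86.3 ± 9.21 against 27.4 ± 12.8, and the phosphoinositide kinase subunit PIK3CD by 1.54 ± 0.29. ADRBK1, which encodes the receptor kinase GRK2, fell by 0.83 ± 0.18, to 49.2 ± 5.10 against 87.9 ± 24.5. HGS, an endosomal sorting protein that sends ubiquitinated receptors toward the lysosome, fell by 0.59 ± 0.19. In total RNA 10 of the 32 rose, 3 fell and 19 were not called, where 21.4% of all genes were called higher and 14.5% lower.

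Of 13 measured genes for selectin ligand glycosylation and sulphation, which decorate PSGL-1, 2 rose in labelled RNA at 4 h, 1 fell and 10 were not called. Their median change was 0.02, and 13.7% of all genes were called higher and 13.7% lower. GALNT2, which starts O-linked glycans, fell by 1.36 ± 0.16, to 63.1 ± 10.7 against 164 ± 9.35. ST3GAL1, a sialyltransferase that caps core 1 O-glycans, rose by 1.43 ± 0.18, to 141 ± 15.2 against 51.8 ± 14.5. The galactosyltransferase B4GALT4 rose by 0.51 ± 0.20 near the threshold (adjusted p = 0.0493 by limma). In total RNA 3 rose, 1 fell and 9 were not called, where 21.4% of all genes were called higher and 14.5% lower.

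Of 10 measured mucins, kinases and cytoskeletal partners of PSGL-1, 1 rose in labelled RNA at 4 h, 2 fell and 7 were not called. The median change was -0.07, and 13.7% of all genes were called higher and 13.7% lower. Moesin (MSN), which links PSGL-1 to actin, rose by 0.68 ± 0.13, to 492 ± 32.2 against 306 ± 86.5. SYK, a kinase that can be recruited by PSGL-1, fell by 1.00 ± 0.19, to 46.4 ± 1.37 against 94.1 ± 20.7, and the sialomucin PODXL fell by 1.23 ± 0.29. In total RNA 4 rose, 4 fell and 2 were not called, where 21.4% of all genes were called higher and 14.5% lower.

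Adhesion genes had 7 of 19 rise in labelled RNA at 4 h, 4 fall and 8 not called, with a median change of 0.22. The shares over all genes were 13.7% called higher and 13.7% lower. The fibronectin receptor chain ITGA5 rose by 2.50 ± 0.22, to 84.5 ± 5.43 against 14.1 ± 6.08. The laminin receptor chain ITGA6 rose by 1.92 ± 0.20, to 164 ± 10.1 against 42.5 ± 14.1, and ITGB2, the beta chain of LFA-1, by 1.305 ± 0.23. ITGA4, the alpha chain of VLA-4, fell by 0.43 ± 0.10, to 554 ± 9.64 against 748 ± 10.7. The collagen receptor chain ITGA2 fell by 1.05 ± 0.34 and ALCAM, the ligand of CD6, by 0.42 ± 0.16 (adjusted p = 0.018 and 0.0389 by limma). In total RNA 11 rose, 3 fell and 5 were not called. The median change was 0.50 against 0.02 over all genes, of which 21.4% were called higher and 14.5% lower.

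Among 13 measured transcription factors, 3 rose in labelled RNA at 4 h, 1 fell and 9 were not called. Beside them, 13.7% of all genes were called higher and 13.7% lower. NFKB1, an NF-kB subunit, rose by 1.47 ± 0.13, the ETS factor ELF1 by 0.71 ± 0.12 and FOXP1 by 0.53 ± 0.20 (adjusted p = 0.0438 by limma), while KLF3 fell by 1.08 ± 0.27. NRF1, whose core site stood in the CXCR4 promoter window, was not called in labelled RNA, at 0.46 ± 0.24 (adjusted p = 0.161 by limma), but was called higher in total RNA, at 0.31 ± 0.12 (0.0456). SP1 (-0.10 ± 0.13, adjusted p = 0.614 by limma) and YY1 (-0.23 ± 0.14, 0.207) were not called in labelled RNA. Nor were FOXO3 (-0.51 ± 0.23, adjusted p = 0.101 by limma) and HIF1A (-0.22 ± 0.12, 0.181). These factors and NRF1 are named beyond the naming rule because their sites were searched. An AP-1 site was searched as well, but the 13 factors held no AP-1 subunit gene. In total RNA 5 of the 13 rose, 3 fell and 5 were not called, where 21.4% of all genes were called higher and 14.5% lower.

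**Figure D5:**
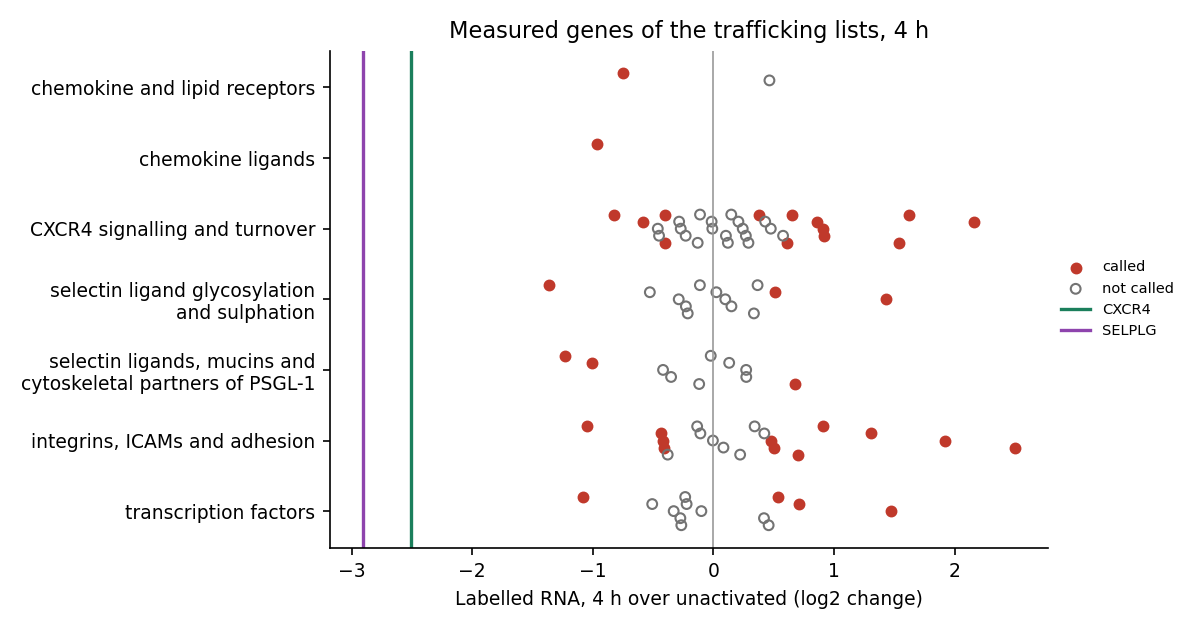
Log2 change of labelled RNA at 4 h over unactivated cells for the 90 measured genes of the trafficking lists, 1 list per row with points spread vertically for legibility. Filled points were called by limma and open points were not; vertical lines mark CXCR4 (-2.51) and SELPLG (-2.91). No listed gene lies near either line, and points fall on both sides of 0. The lines mark genes picked for a deep fall at 4 h, so their distance from the points is not read as a result.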

How the data were processed

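Jurkat total and 4-thiouridine-labelled RNA were measured in 28 samples. Per the labels' protocols, RNA was extracted with Trizol, the labelled part was bound through biotin-HPDP to streptavidin beads, and ScriptSeq libraries followed Ribo-Zero depletion. How long cells were labelled is not stated in the labels. The authors used TopHat2, HTSeq and edgeR on hg19, per the submitters' processing notes, without versions. The deposited table holds the authors' means and SDs of a normalised signal per group, a mean RPKM, natural log decay rates with their SDs, T scores and LOD scores, per the file headers; the scaling of labelled against total signal is not stated.

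Means were taken to log2(value + 1) and the SDs carried over to first order. limma 3.58.1 (R 4.3.3) was run from these summaries over 7485 genes, with 5 labelled groups sharing the spread (9 residual degrees of freedom) and total groups fitted likewise, a variance trend and the robust option; p-values are two-sided and Benjamini-Hochberg adjusted over all genes, with a threshold of 0.05 for a call. No gene was filtered out. The fit was tested on simulated data. Median coefficients of variation were 6.37% to 11.2% in total and 10.4% to 18.2% in labelled RNA. Nothing says that samples came from separate cultures beyond the term biological replicates, so p-values measure the spread between samples.

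Genes named were the members, the 5 nearest genes, and from each list up to 3 called in each direction with the largest labelled change at 4 h; some genes that this rule names are not reported here. Members and lists were chosen with earlier results of these data known. Alternatives covered the pseudocount, a filter, centring, the groups fitted, the prior variance, the linear scale and leaving out samples.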

Additional observations from a re-analysis of the deposited data

How the results depend on the processing

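Each of the 7 labelled comparisons was repeated under 7 other settings: a pseudocount of 0.1 or 5, only genes with a mean of at least 5, median centring, a constant prior variance, the linear scale, and only the 2 groups compared. Of 98 member values 95 kept direction and side of the threshold. The exceptions were the step from 2 to 3 h on the linear scale, where the differences of -50.7 for CXCR4 and -9.67 for SELPLG were not called (adjusted p = 0.476 and 0.235 in limma), and with a constant prior variance, where the CXCR4 change of -0.71 was not called (0.0640); the cause was not tested. Of 49 counts of called genes 42 stayed within 1.5 times. With a constant prior variance the counts were 275 at 1 h against unactivated cells (469 in the report's fit), 237 for 2 h against 1 h (358), 90 for 3 h against 2 h (163) and 132 for 4 h against 3 h (271). With only the groups compared they were 231 at 1 h, 462 for 3 h against 2 h and 669 for 4 h against 3 h. All 30 ratios and 22 of 24 total changes moved by less than the spread (1 log2 SD between samples, pooled over groups), the exceptions being SELPLG total RNA at 3 and 4 h with a pseudocount of 5. By median centring the unactivated ratio was 0.72 for CXCR4 and -0.16 for SELPLG, which turned its sign, and the CXCR4 ratio at 4 h was 0.39. With a pseudocount of 5 the SELPLG ratio at 3 h was -0.69. Each of these shifts was larger than the SE of the ratio.

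Leaving out 1 sample was exact at 1 h and a bound elsewhere, with the spread kept as fitted. Over these, labelled CXCR4 ran from -1.01 to -0.60 at 1 h, from -0.87 to -0.57 for 3 h against 2 h and from 0.26 to 0.56 for 4 h against 3 h. Labelled SELPLG ran from -1.058 to -1.003 at 1 h, from -1.28 to -0.997 for 2 h against 1 h, from -1.15 to -0.77 for 3 h against 2 h and from -0.09 to 0.44 for 4 h against 3 h. At 2, 3 and 4 h against unactivated cells both genes kept their calls, with adjusted p in limma no higher than 3.9e-07. For total RNA this alternative was chosen after seeing the data. No paired analysis was possible because the table gives group means and SDs, so the replicate letters of the labels cannot enter a fit. Precision is limited by 2 or 3 samples per group and by a depth that is unknown for most of them.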
